A study of Mus musculus with 16 samples.

Results

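The 10 rows of the count table named *Hdac1* to *Hdac10* were followed across 16 RNA-seq libraries of tumor-infiltrating T lymphocytes (TILs); the table has 55450 rows. The rows were taken by gene name, so no measured value chose them. All 10 were present. They encode the zinc-dependent histone deacetylases other than HDAC11, whose gene was outside the rule and is given for reference.

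Total RNA came from CD4+ or CD8+ TILs of tumors grown s.c. from B16F10, a melanoma line of the mouse. The 4 groups crossed cell type with genotype (WT or *Sirt2*-/-), with 4 libraries each. WT mice were C57BL/6J and the knockout strain was B6.129-*Sirt2*tm1.1Fwa/J, both 7 to 8 weeks old, and every mouse carried the same tumor line with no drug treatment named in the labels. The loss of *Sirt2* is a germline one, so host cells other than T cells lack it too, while the tumor cells do not. The labels and methods give 4 mice a group, as many as the libraries, but do not say whether a library holds 1 mouse or whether CD4+ and CD8+ libraries of the same number came from the same tumor, and the sex of the mouse behind a library is not given, so the p-values measure the spread between libraries.

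Histone deacetylases remove acetyl groups from lysines of histones and many other proteins. Class I enzymes (*Hdac1*, *Hdac2*, *Hdac3*, *Hdac8*) are mostly nuclear, and HDAC1 and HDAC2 form the catalytic cores of the SIN3, NuRD and CoREST corepressors while HDAC3 works in NCoR/SMRT. Class IIa members (*Hdac4*, *Hdac5*, *Hdac7*, *Hdac9*) have little deacetylase activity of their own, bind MEF2 transcription factors and leave the nucleus when kinases such as the CaM kinases and protein kinase D phosphorylate them and 14-3-3 proteins bind. In T cells, antigen receptor signaling drives HDAC7 out of the nucleus in this way. Class IIb holds HDAC6, a cytoplasmic α-tubulin deacetylase, and HDAC10, a polyamine deacetylase. SIRT2, the protein lost in the knockout, belongs to the separate NAD-dependent sirtuins and shares α-tubulin as a substrate with HDAC6.

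The sequences 250 bases before the RefSeq start (GRCm38.p6) are shown for members whose transcripts were higher or lower in CD8+ than in CD4+ WT TILs below; 7 of 10 members had a window, and *Hdac1*, *Hdac3* and *Hdac10* did not. Of 7 motifs searched on both strands without regard to overlap between them, capitals mark 3, namely the GC box (GGGCGG), the RUNX motif (TGTGGT) and the MEF2 motif. The *Hdac2* window lies at chr10:36974294-36974543 (+ strand), the *Hdac5* window at chr11:102230173-102230422 (- strand), and the *Hdac9* windows at chr12:34528890-34529139 and chr12:34917096-34917345 (- strand), for 2 of its start sites.
Hdac2: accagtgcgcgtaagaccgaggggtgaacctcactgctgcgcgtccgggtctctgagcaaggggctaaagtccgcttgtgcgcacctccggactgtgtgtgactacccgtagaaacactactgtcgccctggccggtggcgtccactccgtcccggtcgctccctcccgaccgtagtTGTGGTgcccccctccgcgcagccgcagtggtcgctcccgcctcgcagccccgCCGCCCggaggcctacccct
Hdac5: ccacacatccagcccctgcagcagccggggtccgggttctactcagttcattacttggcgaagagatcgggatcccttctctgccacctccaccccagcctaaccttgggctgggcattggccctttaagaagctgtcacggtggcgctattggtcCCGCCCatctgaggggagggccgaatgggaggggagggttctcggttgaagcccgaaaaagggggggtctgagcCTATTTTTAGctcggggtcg
Hdac9, first window: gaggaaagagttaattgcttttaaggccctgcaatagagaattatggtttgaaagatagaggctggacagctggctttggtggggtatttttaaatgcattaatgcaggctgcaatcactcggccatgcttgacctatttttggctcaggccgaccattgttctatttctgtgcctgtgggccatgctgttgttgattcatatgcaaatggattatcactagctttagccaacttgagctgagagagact
Hdac9, second window: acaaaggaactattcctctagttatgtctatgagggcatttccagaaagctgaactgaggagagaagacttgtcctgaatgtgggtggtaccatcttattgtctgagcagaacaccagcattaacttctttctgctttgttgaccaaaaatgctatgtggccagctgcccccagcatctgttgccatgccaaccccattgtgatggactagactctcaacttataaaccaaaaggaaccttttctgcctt

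Among 32851 windows of the same length, 32.7% held the GC box, 14% the RUNX motif and 0.5% the MEF2 motif. *Hdac2* held 1 GC box and 1 RUNX motif, and *Hdac5* held 1 GC box and 1 MEF2 motif. The *Hdac9* windows held none of the 3 motifs. Of the motifs not in capitals, the CCAAT box (CCAAT, in 33.8% of all windows) occurred 2 times in the *Hdac5* window, and the E box (CANNTG, 66.2%) occurred 1 time in the *Hdac5* window and 3 and 2 times in the first and second *Hdac9* windows. The TATA box (TATAAA, 12.4%) occurred 1 time, in the second *Hdac9* window, and the ETS motif (CCGGAA, 12%) in none of these windows. Their GC content was 43.6% and 44.4%, below the median of 52.4% over all windows, whereas the *Hdac2* window reached 68.8% and the *Hdac5* window 60.8%. These matches describe letters in the window and carry no measurement of binding.

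Total counts ranged from 28000949 to 62407851 per library. In 13 libraries 17730 to 22138 genes had a count, but 3 libraries stood apart with fewer genes, namely *Sirt2*-/- CD4+ replicate 4 (8169), WT CD4+ replicate 1 (12587) and WT CD8+ replicate 1 (14411). *Sirt2*-/- CD4+ replicate 4 had 0 counts for 5 members (*Hdac3*, *Hdac6*, *Hdac8*, *Hdac9*, *Hdac10*) in spite of the largest total. List counts and the interaction are given with and without these 3 libraries. So are the cell type differences of *Hdac1*, *Hdac2*, *Hdac5*, *Hdac8* and *Hdac9*. *Cd4* was at 384.0 to 620.2 CPM (counts scaled by TMM library size) in CD4+ libraries and at most 4.93 in CD8+ libraries. *Cd8a* was at 1003.4 to 1261.3 CPM in CD8+ libraries and at most 33.4 in CD4+ ones. Both were in accord with the labels. Among CD4+ libraries *Cd8a* was at 0.0333 to 9.24 CPM in WT and at 10.2 to 33.4 CPM in *Sirt2*-/- ones, without overlap. The part of this difference in the results was not tested. *Sirt2* was at 33.4 to 75.6 CPM in WT libraries and at most 12.2 in *Sirt2*-/- libraries, without overlap.

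Scaled to exon length, *Hdac1* was the most abundant member and *Hdac9* the least in all 4 groups. The levels in this paragraph are means ± SD in CPM per kb of exon, with the 3 libraries with few genes left out (n = 3, and n = 4 in *Sirt2*-/- CD8+ TILs). *Hdac1* stood at 34.22 ± 1.49 in WT CD4+, 32.89 ± 3.61 in *Sirt2*-/- CD4+, 46.35 ± 4.46 in WT CD8+ and 48.53 ± 4.99 in *Sirt2*-/- CD8+ TILs. *Hdac2* and *Hdac7* came next, and their order depended on the cell type. In WT CD4+ TILs *Hdac7* (13.08 ± 0.53) and *Hdac2* (12.96 ± 1.89) overlapped, whereas in WT CD8+ TILs *Hdac2* (21.80 ± 1.49) lay above *Hdac7* (13.29 ± 0.73) without overlap. *Hdac3* was at 7.64 to 8.47 and *Hdac4* at 6.11 to 6.56 over the 4 groups, and these 2 neighbours overlapped in WT CD4+ TILs but not in the other 3 groups.

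*Hdac5* took the next place in CD4+ TILs, with 4.89 ± 1.5 CPM per kb in WT and 4.45 ± 1.25 in *Sirt2*-/-, and overlapped with *Hdac4* in both. In CD8+ TILs it had 2.25 ± 0.48 in WT and 2.01 ± 0.68 in *Sirt2*-/-, within the range of *Hdac10* and *Hdac6*. *Hdac6*, *Hdac8* and *Hdac10* were between 1.88 and 3.35 in the 4 groups and mostly overlapped with their neighbours. *Hdac9* was at most 0.11 CPM per kb. *Hdac11*, outside the rule, was at 0.10 to 0.31. It was near *Hdac9* in WT CD4+ TILs (0.10 against 0.11). Its mean was above that of *Hdac9* in *Sirt2*-/- CD4+ (0.31 against 0.06), WT CD8+ (0.23 against 0.01) and *Sirt2*-/- CD8+ TILs (0.15 against 0.01).

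**Figure D1:**
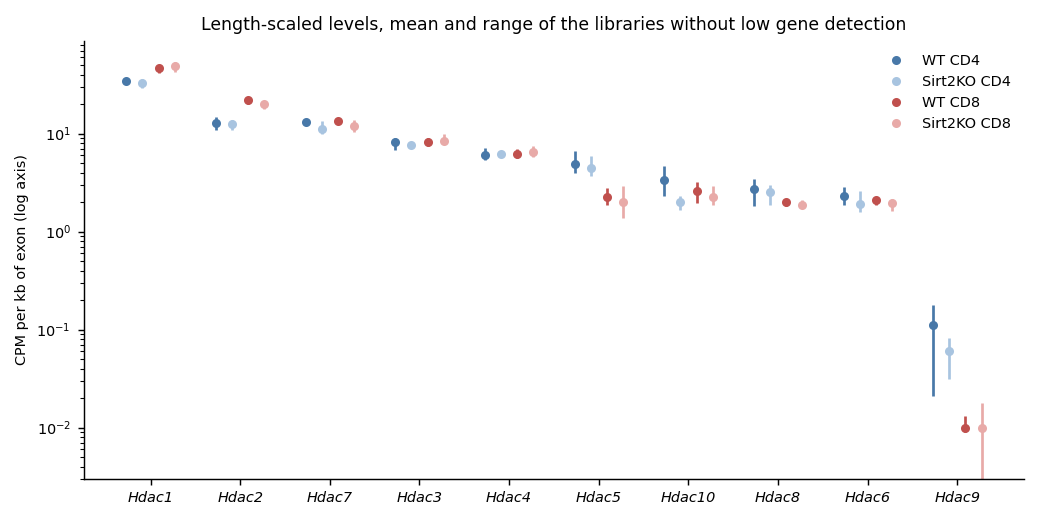
Length-scaled levels of the 10 members (CPM per kb of exon, log axis) by group, with the 3 libraries with few genes left out; points are means, vertical lines run from the lowest to the highest library, and a library at 0 is drawn at the foot of the axis. *Hdac1* is highest and *Hdac9* lowest in all 4 groups.

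As a share of the summed length-scaled level of the 10 members, class I transcripts made up 66.1% ± 3.53 in WT CD4+, 68.3% ± 2.52 in *Sirt2*-/- CD4+, 74.7% ± 0.533 in WT CD8+ and 76.2% ± 2.50 in *Sirt2*-/- CD8+ TILs (SD, same 13 libraries). The class IIa share was 27.5% ± 2.20, 26.9% ± 1.99, 20.8% ± 0.305 and 19.8% ± 2.20 in the same order. Class IIb transcripts held 4.06% to 6.35%. The share of class I was 62.2% to 71.1% over the 6 CD4+ libraries and 74.2% to 79.3% over the 7 CD8+ libraries, without overlap. WT CD8+ replicate 1, 1 of the libraries with few genes, fell among the CD4+ values at 66.9%. *Hdac1* alone held 39.1% of the WT CD4+ and 44.1% of the WT CD8+ sum, and *Hdac2* held 14.7% and 20.8%. Shares sum to a whole, so a rise of 1 member lowers the others. The shares and the level order also depend on the exon length, a union over all transcripts of a gene (15.81 kb for *Hdac4*, 3.44 kb for *Hdac1*). By mean CPM without length scaling, *Hdac4* (96.6) and *Hdac7* (88.4) lay above *Hdac2* (58.0) in WT CD4+ TILs, with the library with few genes left out.

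CD8+ and CD4+ TILs were compared within each genotype; the 2 genotypes share no library. In WT TILs *Hdac2* transcripts were higher and *Hdac5* transcripts lower in CD8+ than in CD4+ cells. These 2 of 10 members passed the test, beside 11.9% of all 14892 genes tested (edgeR quasi-likelihood test, Benjamini-Hochberg adjusted p below 0.05). *Hdac1*, *Hdac2*, *Hdac5* and *Hdac9* did not overlap between the 2 groups of 4 libraries, beside 22.7% of all genes. *Hdac9* met the filter on low counts here only through its CD4+ libraries, where it was higher. In bulk RNA a difference in the make-up of the isolated cells and a difference per cell cannot be told apart. The study purified TILs with CD3ε MicroBeads. How CD4+ and CD8+ cells were then separated is not given in the sources used here. The study reports routine flow cytometry checks of sorted populations with high purity, but gives no value for these libraries. The CD8+ libraries had a higher summed level of 3 NK cell markers (210.3 to 417.5 CPM against 15.7 to 45.7 in CD4+ libraries). These were *Ncr1*, *Klrb1c* and *Eomes*. Since *Eomes* is also a marker of CD8+ T cells, the sum does not tell NK cells from CD8+ T cells. In WT the CD8+ libraries had a lower summed level of 6 stromal and endothelial markers (36.2 to 48.3 against 95.0 to 116.0 CPM). The part of such cells in the results was not tested.

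*Hdac2* (chr10:36974544-37001889, GENCODE M21 on GRCm38) encodes the partner of HDAC1 in nuclear corepressors. Its level was 41.7, 58.9, 49.1 and 65.9 CPM in WT CD4+ replicates 1 to 4, and 76.6, 101.4, 101.4 and 89.8 CPM in WT CD8+ replicates 1 to 4. All WT CD8+ libraries lay above all WT CD4+ libraries. The log2 fold change was 0.70 ± 0.18 (SE, 1.63-fold, edgeR adjusted p = 0.027). The levels in *Sirt2*-/- TILs were 61.6, 59.4, 48.3 and 86.8 CPM for CD4+ libraries, and 95.7, 79.9, 95.0 and 91.5 CPM for CD8+ libraries. The highest CD4+ value was that of replicate 4, which has few genes, and it was the single overlap between the groups. The log2 fold change of 0.49 ± 0.19 did not pass (edgeR adjusted p = 0.35), and without that replicate it was 0.65 ± 0.12 (edgeR adjusted p = 0.0024). In WT the call was lost without WT CD4+ replicate 2 or 3 or WT CD8+ replicate 2, 3 or 4, with log2 fold changes of 0.65 to 0.85 over the 8 libraries left out in turn and adjusted p of 0.013 to 0.096.

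*Hdac1* (chr4:129516104-129542713) encodes the other catalytic subunit of these corepressors. WT CD4+ libraries were at 124.2, 122.7, 118.5 and 112.5 CPM and WT CD8+ libraries at 129.3, 172.9, 142.8 and 163.2 CPM. The groups did not overlap, and WT CD8+ replicate 1 lay closest to the CD4+ values. The log2 fold change of 0.28 ± 0.13 did not pass (edgeR adjusted p = 0.21), whereas without the libraries with few genes it was 0.43 ± 0.11 (edgeR adjusted p = 0.013). For *Sirt2*-/- TILs the CD4+ libraries were at 99.7, 116.3, 124.0 and 60.0 CPM and the CD8+ libraries at 145.2, 166.3, 187.1 and 170.2 CPM, again without overlap. Here the log2 fold change was 0.73 ± 0.23 (edgeR adjusted p = 0.19), and 0.53 ± 0.11 without *Sirt2*-/- CD4+ replicate 4 (edgeR adjusted p = 0.0061). *Hdac1* has near-identical copies in the genome, foremost the processed pseudogene *Gm10093* (99.4% identity over 1444 bases). The 14 similar genes together held 0.63% to 2.62% as many counts as *Hdac1*. How many reads fitted both *Hdac1* and a copy is not known, so these shares set no bound on the reads lost or gained.

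*Hdac5* (chr11:102194432-102230166), a class IIa member that binds MEF2 factors, was the member that moved most among those that passed. WT CD4+ libraries were at 63.4, 35, 35.7 and 58.1 CPM and WT CD8+ libraries at 22.8, 18.2, 16.5 and 24.6 CPM. The lowest CD4+ value stood above the highest CD8+ value. The log2 fold change was -1.29 ± 0.25 (SE, 2.44-fold lower in CD8+, edgeR adjusted p = 0.0061), and it passed with each of the 8 libraries left out in turn. Levels in *Sirt2*-/- TILs were 51.8, 33.1, 32.5 and 21.8 CPM for CD4+ libraries, and 25.8, 12.1, 18.2 and 14.3 CPM for CD8+ libraries. CD4+ replicate 4 again lay closest to the other group and overlapped with it. The log2 fold change was -1.0 ± 0.43 (edgeR adjusted p = 0.42), and -1.18 ± 0.27 without that replicate (edgeR adjusted p = 0.010). The level among CD4+ libraries itself spread, with WT CD4+ replicate 1 and *Sirt2*-/- CD4+ replicate 4 holding the highest and the lowest CD4+ value.

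*Hdac9* (chr12:34047580-34917095), also of class IIa, was scarce. Its counts were 70, 14, 117 and 75 in WT CD4+ replicates 1 to 4, and 0, 5, 7 and 6 in WT CD8+ replicates 1 to 4. No WT CD8+ library reached the lowest WT CD4+ count. In WT the gene met the filter on low counts only through the CD4+ group where it was higher. Its separation and its calls there are therefore not independent of the filter. Its log2 fold change was -3.92 ± 1.36 (edgeR adjusted p = 0.093), and -3.31 ± 0.94 without the libraries with few genes (edgeR adjusted p = 0.023). Counts in *Sirt2*-/- TILs were 21, 51, 48 and 0 for CD4+ libraries, and 6, 0, 13 and 7 for CD8+ libraries, with a log2 fold change of -2.37 ± 1.55 (edgeR adjusted p = 0.72) and, without CD4+ replicate 4, -2.80 ± 1.06 (edgeR adjusted p = 0.078). At such counts the size of the difference is loosely bounded. A count of 0 allows up to 3 counts at the depth of a library, for counting error only.

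**Figure D2:**
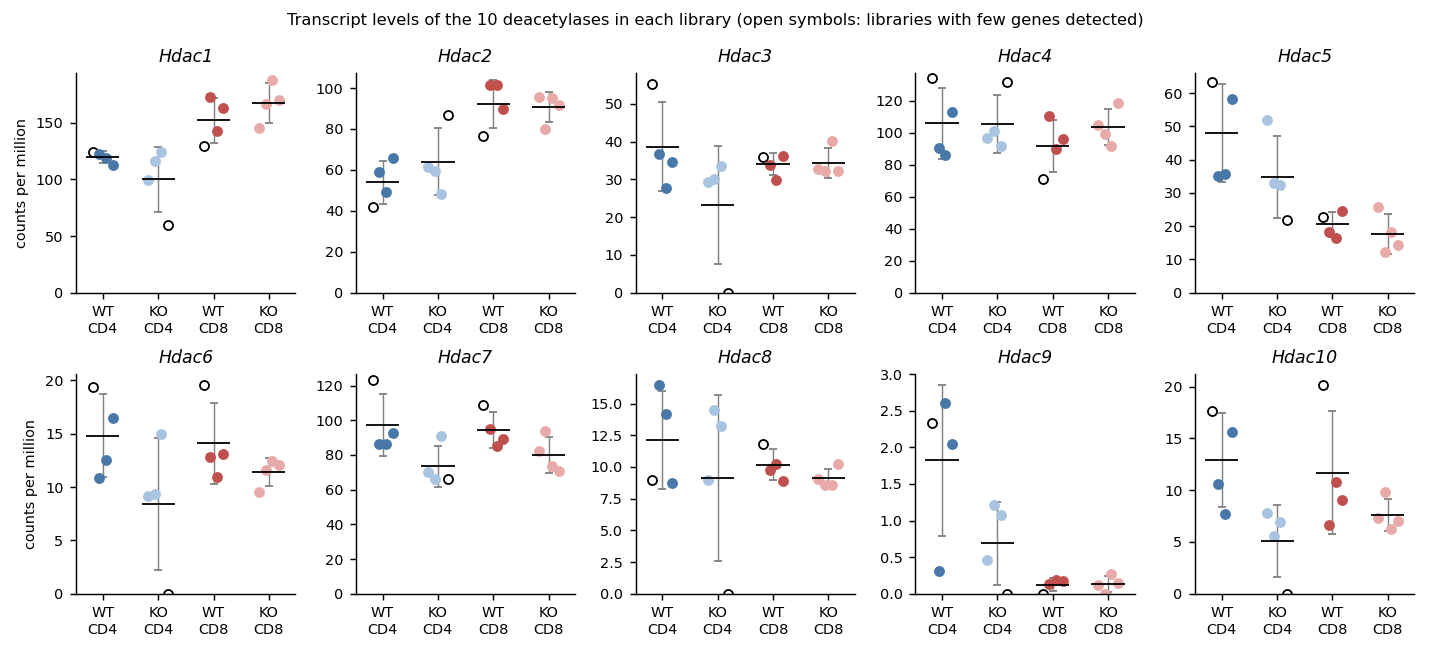
Level of each of the 10 members in every library (CPM, linear axes from 0) by group; lines and bars are means ± SD of 4 libraries, and open symbols mark the 3 libraries with few genes detected. The 4 WT CD8+ libraries lie above the WT CD4+ libraries for *Hdac1* and *Hdac2* and below them for *Hdac5* and *Hdac9*, and 5 members are at 0 in *Sirt2*-/- CD4+ replicate 4. Of all genes tested in WT, 22.7% had groups of 4 without overlap.

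*Hdac7* and *Hdac4*, the other class IIa members, did not pass in the WT comparison. *Hdac7*, known for repressing *Nr4a1* in thymocytes, was at 86.1 to 123.5 CPM in WT CD4+ and 85.2 to 108.8 CPM in WT CD8+ libraries, with a log2 fold change of -0.11 ± 0.15 (edgeR adjusted p = 0.74). *Hdac4* was at 85.9 to 134.2 and 71.4 to 110.4 CPM (log2 fold change -0.27 ± 0.17, edgeR adjusted p = 0.39). In both the groups overlapped. *Hdac7* shares 29 exonic bases with *Slc48a1* on the opposite strand and *Hdac4* shares 3536 with the lincRNA *Gm26720*, which had at most 5 counts in a library. *Gm26720* too lies on the opposite strand. The library kit keeps strand, but the strand setting of the counting is not given in the sources used here. Reads in the bases shared by *Hdac7* and *Slc48a1*, or by *Hdac4* and *Gm26720*, may therefore not be told apart. The low counts of *Gm26720* set no bound on this.

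Among the remaining members, *Hdac3*, the enzyme of the NCoR/SMRT complex, was at 27.7 to 55.3 CPM in WT CD4+ and 29.9 to 36.3 CPM in WT CD8+ libraries (log2 fold change -0.25 ± 0.21, edgeR adjusted p = 0.55). *Hdac8*, which deacetylates the cohesin subunit SMC3, was at 8.77 to 16.5 and 8.89 to 11.8 CPM (-0.33 ± 0.33, edgeR adjusted p = 0.61). *Hdac6* was at 10.8 to 19.4 and 10.9 to 19.6 CPM (-0.13 ± 0.30, edgeR adjusted p = 0.85), and *Hdac10* at 7.71 to 17.7 and 6.66 to 20.2 CPM (-0.20 ± 0.41, edgeR adjusted p = 0.83). All 4 overlapped between the WT groups. *Hdac6* and *Hdac8* are X-linked. In 1 of 19 alternatives, limma-voom, *Hdac8* passed as lower in WT CD8+ than in WT CD4+ TILs (limma-voom adjusted p = 0.016). Without the libraries with few genes its log2 fold change was -0.46 ± 0.25 in WT (edgeR adjusted p = 0.22). For *Sirt2*-/- TILs it was -0.03 ± 1.42 with all libraries, and -0.46 ± 0.21 without CD4+ replicate 4 (edgeR adjusted p = 0.14).

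In *Sirt2*-/- TILs 0 of 10 members passed the cell type comparison, beside 2.24% of 15787 genes (edgeR). DESeq2 called 0 members there too, beside 1339 genes, and limma-voom 4, beside 4474 of the 15787 genes. At an unadjusted p below 0.05 in edgeR there were 3 (*Hdac1*, *Hdac2*, *Hdac5*), beside 11.7% of all genes. Without CD4+ replicate 4, *Hdac1* and *Hdac2* were higher and *Hdac5* lower, 3 of 10 members beside 25.4% of 16703 genes. In WT without its 2 libraries with few genes there were 4 (*Hdac1* and *Hdac2* higher, *Hdac5* and *Hdac9* lower) beside 28% of 15694 genes. Of these, *Hdac9* was tested only because its CD4+ libraries met the filter on low counts. *Hdac1* alone kept its groups of 4 apart in *Sirt2*-/- TILs, 1 of 10 members beside 22.2% of all genes.

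**Figure D3:**
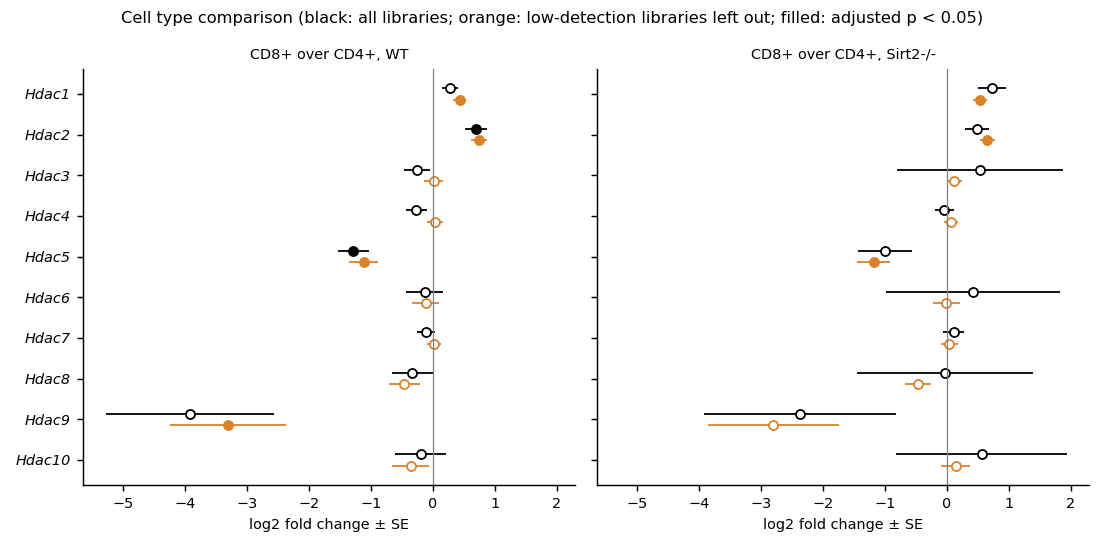
Log2 fold changes of CD8+ over CD4+ TILs in WT (left) and *Sirt2*-/- mice (right); points are edgeR estimates with bars of ± 1 SE, black for all libraries and orange with the libraries with few genes left out, filled where the adjusted p is below 0.05. *Hdac2* and *Hdac5* are filled in WT with all libraries, and the wide black bars on the right belong to members at 0 in CD4+ replicate 4.

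A ratio of 2 members within a library does not depend on library scaling. The ratio of *Hdac2* to *Hdac5* CPM, chosen after their values were seen, was 0.66, 1.68, 1.38 and 1.13 in WT CD4+ libraries and 3.35, 5.56, 6.12 and 3.66 in WT CD8+ libraries. Among *Sirt2*-/- libraries it was 1.19, 1.80, 1.49 and 3.98 for the CD4+ ones, and 3.71, 6.58, 5.22 and 6.41 for the CD8+ ones. Every CD8+ library was above every CD4+ library other than *Sirt2*-/- CD4+ replicate 4. That library and WT CD4+ replicate 1 also carried the highest summed level of 7 melanoma markers, 81.5 and 98.4 CPM against 3.83 to 15.7 CPM in the other 14; in *Sirt2*-/- CD4+ replicate 4, 5 of the 7 markers were at 0. The part of tumor RNA in their values was not tested.

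The genotype comparison asks whether loss of SIRT2 goes with other transcript levels of the zinc-dependent deacetylases. In CD4+ TILs 0 of 10 members passed, and 0% of 15070 genes did (edgeR; 1.26% at an unadjusted p below 0.05, 0 members among them). *Sirt2* itself was at 75.6, 41.1, 40.7 and 45.8 CPM in WT and 12.2, 10.2, 10.6 and 0 CPM in *Sirt2*-/- CD4+ libraries, without overlap, yet its log2 fold change of -2.60 ± 1.26 did not pass with all 8 libraries (edgeR adjusted p = 1.0). Without the libraries with few genes it was -1.95 ± 0.18 (edgeR adjusted p = 0.0016), so the fit with all libraries was imprecise in CD4+ TILs. In CD8+ TILs 0 of 9 members passed and 1 gene of 15302 did, *Sirt2* (0.00654%; 3.78% at an unadjusted p below 0.05, 0 members among them). *Hdac9* was left out there by the filter on low counts. DESeq2 and limma-voom also called 0 members in both cell types. Between 2.95% (CD8+) and 3.13% (CD4+) of all genes had groups that did not overlap, and 0 members did in either cell type.

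Among class I members in CD8+ TILs, where the standard errors were smallest, log2 fold changes of *Sirt2*-/- over WT were 0.14 ± 0.12 for *Hdac1*, -0.03 ± 0.11 for *Hdac2*, 0.01 ± 0.12 for *Hdac3* and -0.16 ± 0.19 for *Hdac8*. In CD4+ TILs without the libraries with few genes the same 4 were at -0.05 ± 0.13, -0.03 ± 0.16, -0.09 ± 0.17 and -0.11 ± 0.29. With all CD4+ libraries *Hdac3* was at -0.71 ± 1.30 and *Hdac8* at -0.39 ± 1.44, both at 0 in 1 library. A p that misses the threshold does not show equal levels, and the standard errors give the precision.

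With all libraries, the log2 fold changes of *Sirt2*-/- over WT were below 0 for the tested class IIa members other than *Hdac4*. The median over all genes was -0.11 in CD4+ and 0.01 in CD8+ TILs. *Hdac7* was at 66.0 to 91.0 CPM in *Sirt2*-/- CD4+ against 86.1 to 123.5 in WT CD4+ libraries, and at 70.8 to 93.6 against 85.2 to 108.8 CPM in CD8+ libraries. The groups overlapped in both cell types, by 1 *Sirt2*-/- library in each. *Hdac7* had a log2 fold change of -0.40 ± 0.21 in CD4+ (edgeR adjusted p = 1.0) and -0.24 ± 0.12 in CD8+ TILs (edgeR adjusted p = 0.99). *Hdac5* was at -0.45 ± 0.37 and -0.22 ± 0.24, and *Hdac4* at -0.00 ± 0.20 and 0.18 ± 0.14 (edgeR adjusted p of 0.99 to 1.0). *Hdac9* was at -1.39 ± 1.54 in CD4+ TILs. Without the libraries with few genes, *Hdac7* was at -0.22 ± 0.14 in CD4+ and -0.16 ± 0.11 in CD8+ TILs. *Hdac5* was then at -0.13 ± 0.24 and -0.16 ± 0.25, *Hdac4* at 0.01 ± 0.14 and 0.08 ± 0.11, and *Hdac9* at -0.85 ± 0.85 in CD4+ TILs.

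Class IIb holds *Hdac6*, whose product shares α-tubulin with SIRT2. *Hdac6* was at 19.4, 10.8, 12.5 and 16.5 CPM in WT CD4+ and 9.20, 9.36, 15.0 and 0 CPM in *Sirt2*-/- CD4+ libraries, and at 19.6, 12.8, 10.9 and 13.1 against 9.54, 11.6, 12.4 and 12.1 CPM in CD8+ libraries. WT CD4+ replicate 1 and WT CD8+ replicate 1, both with few genes, were the highest of their cell type. The log2 fold changes were -0.80 ± 1.42 and -0.31 ± 0.22 (edgeR adjusted p = 1.0 and 0.99), and -0.24 ± 0.28 and -0.10 ± 0.16 without the libraries with few genes. *Hdac10* was at 17.7, 10.6, 7.71 and 15.6 CPM in WT CD4+ and 7.77, 5.62, 6.89 and 0 CPM in *Sirt2*-/- CD4+ libraries, which overlapped by 1 library. Its log2 fold change was -1.33 ± 1.45 in CD4+ TILs, and -0.74 ± 0.31 without the libraries with few genes (edgeR adjusted p = 0.99). It was then the 1 member of 10 at an unadjusted p below 0.05, beside 4.35% of all genes. In CD8+ TILs *Hdac10* was at -0.62 ± 0.33 with all libraries and -0.21 ± 0.23 without WT CD8+ replicate 1, which had the highest value of 20.2 CPM.

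**Figure D4:**
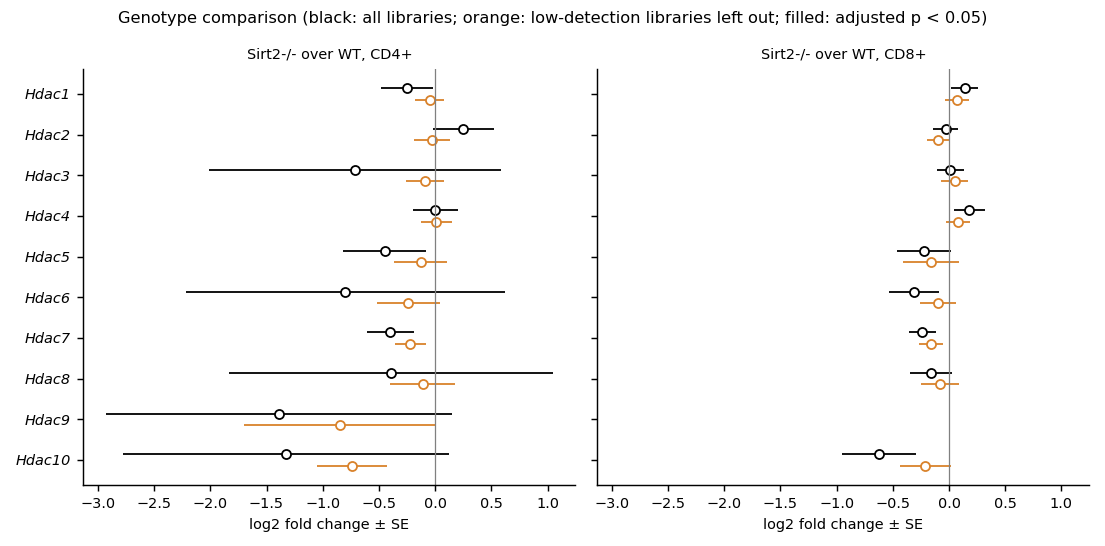
Log2 fold changes of *Sirt2*-/- over WT in CD4+ (left) and CD8+ TILs (right); points are edgeR estimates with bars of ± 1 SE, black for all libraries and orange with the libraries with few genes left out, open where the adjusted p is 0.05 or above. All points are open, *Hdac9* was not tested in CD8+ TILs, and the wide black bars on the left belong to members at 0 in CD4+ replicate 4.

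An interaction term over the 16 libraries compared the genotype effect in CD8+ with that in CD4+ TILs. It passed for 0 of 10 members and 0% of 17270 genes (edgeR; 1.98% at an unadjusted p below 0.05, 0 members among them). For *Hdac2* and *Hdac5* the difference, as the effect in CD8+ less that in CD4+ TILs, was -0.28 ± 0.28 and 0.24 ± 0.50 on the log2 scale (edgeR adjusted p = 1.0 for both). Without the 3 libraries with few genes it was -0.07 ± 0.18 for *Hdac2* and -0.03 ± 0.39 for *Hdac5*, whose sign turned (edgeR adjusted p = 1.0 for both).

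The complexes and partners of the members were counted in the WT cell type comparison from hand-written lists, beside a median log2 fold change of -0.02 over all genes, of which 11.9% passed (4.9% higher and 7.0% lower in CD8+). Without the libraries with few genes 28% of all genes passed (14.9% higher and 13.1% lower). Of the SIN3 complex, 12 of 13 genes were tested, and 3 were lower in CD8+ than in CD4+ TILs and 0 higher (median -0.15). These were *Arid4b* (237.4 ± 35.5 against 509.7 ± 145.7 CPM, log2 fold change -1.17 ± 0.18, edgeR adjusted p = 0.0020), *Arid4a* (-0.89 ± 0.13) and *Suds3* (-0.53 ± 0.15). Without the libraries with few genes *Suds3* did not pass, *Sap18* was higher (0.39 ± 0.13), and the count was 2 lower and 1 higher (median -0.13). Of 12 NuRD genes, *Chd3*, a chromatin remodeling ATPase, was lower (273.8 ± 30.7 against 609.8 ± 75.1 CPM, -1.22 ± 0.12, edgeR adjusted p = 0.00014) and the histone-binding *Rbbp7* higher (230.3 ± 35.7 against 128.7 ± 22.0 CPM, 0.77 ± 0.16, edgeR adjusted p = 0.011), with a median of 0.09. Without those libraries 5 NuRD genes were higher, *Cdk2ap1* (0.76 ± 0.22) among them, and 1 lower (median 0.29). Of 9 CoREST genes (median -0.24) and 5 NCoR/SMRT genes (median -0.00), 0 passed; without those libraries 0 CoREST genes passed (median -0.23) and of NCoR/SMRT *Tbl1xr1* was higher (0.45 ± 0.10). Of the 3 tested genes of MiDAC, an HDAC1/2 complex of dividing cells, *Trerf1* was lower (14.6 ± 2.48 against 49.8 ± 13.7 CPM, -1.84 ± 0.24, edgeR adjusted p = 0.00064), and without those libraries *Dnttip1* was lower too (-0.47 ± 0.14).

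Partners of the class IIa members went in both directions. Of 4 MEF2 genes (median 0.85) *Mef2a* was higher in WT CD8+ TILs (167.1 ± 17.3 against 68.4 ± 16.4 CPM, 1.21 ± 0.19, edgeR adjusted p = 0.0018). Of 15 class IIa kinase genes (median -0.51), *Camk1d* was higher (1.0 ± 0.25) and *Camk4*, the calcium/calmodulin kinase IV gene (-0.91 ± 0.12), and *Sik3* (-0.56 ± 0.15) were lower. Of 7 genes for 14-3-3 proteins (median 0.24) *Ywhag* was higher (0.76 ± 0.22). Of 10 histone acetyltransferase genes, which oppose the deacetylases, 4 were lower and 1 higher (median -0.34), among them *Kat2b* (42.5 ± 6.80 against 86.7 ± 8.45 CPM, -1.10 ± 0.17) and *Kat6b* (-0.71 ± 0.14) lower and *Hat1* (53.1 ± 3.83 against 27 ± 2.53 CPM, 0.90 ± 0.16) higher. Of 4 BET readers of acetyl-lysine (median -0.07) *Brd2* was lower (-0.45 ± 0.12). Without the libraries with few genes, the 14-3-3 genes had 4 higher and 0 lower (median 0.38), the MEF2 genes 2 higher and 0 lower, the kinases 3 higher and 4 lower, the acetyltransferases 2 higher and 4 lower, and the BET readers 0 higher and 1 lower.

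Among list genes in *Sirt2*-/- TILs, *Arid4b* (-1.41 ± 0.26), *Chd3* (-1.11 ± 0.18) and *Camk4* (-0.99 ± 0.19) were lower and *Rbbp7* (0.84 ± 0.13), *Mef2a* (0.90 ± 0.14) and *Ywhag* (0.91 ± 0.15) higher in CD8+ cells, beside a median of 0.16 over all genes, of which 2.24% passed. These 6 were the list genes that passed there with all libraries. Without CD4+ replicate 4, 25.4% of all genes passed, and so did more list genes, namely 7 of 12 NuRD genes (5 higher, 2 lower), 7 of 10 acetyltransferases (2 higher, 5 lower), 6 of 15 kinases (2 higher, 4 lower), 3 SIN3 genes (1 higher, 2 lower), 3 MEF2 genes (2 higher, 1 lower), 3 of 7 14-3-3 genes (all higher), and 2 CoREST genes, 1 MiDAC gene and 1 BET reader (all lower). Of NCoR/SMRT 0 passed there. In the genotype comparisons 0 genes of these lists passed in either cell type (edgeR adjusted p below 0.05).

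**Figure D5:**
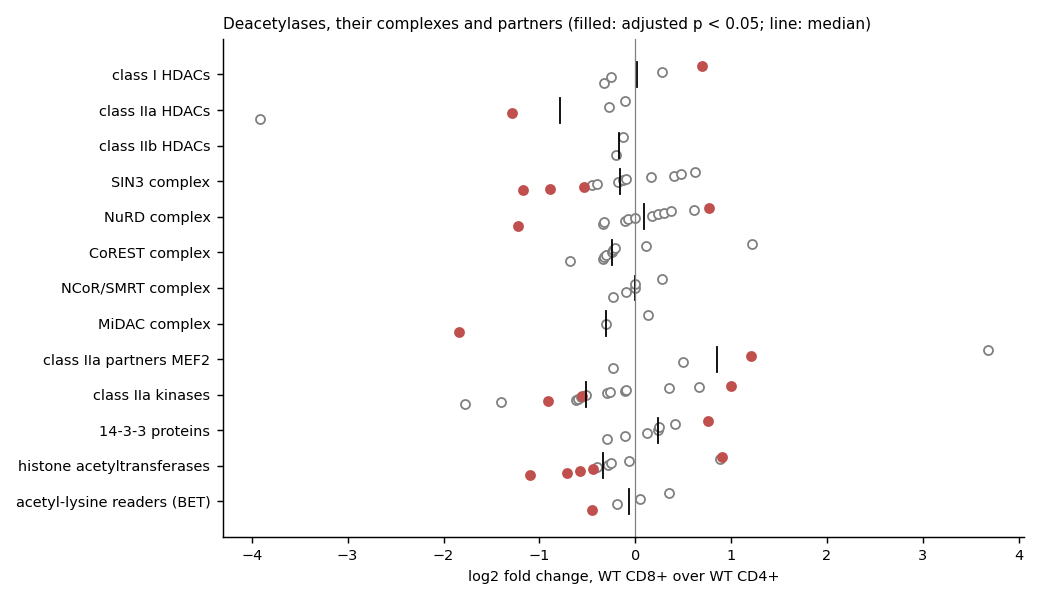
Log2 fold change of WT CD8+ over WT CD4+ TILs with all libraries, for each tested gene of the deacetylase classes, their complexes and partners; each point is a gene, filled where the edgeR adjusted p is below 0.05, and a vertical line marks the median of a list. Filled points lie on both sides of 0, with 4 lower and 1 higher among the histone acetyltransferases and 3 lower among the SIN3 genes.

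The genes whose log2 CPM followed *Hdac2* most closely over 13 libraries, among 17269 genes, were *Znhit6* (Pearson r = 0.986), *Esf1* (0.982) and *Rpl10* (0.978). For *Hdac5* they were *Sptbn1* (0.979), *Numa1* (0.976) and *Stk24* (0.970). The 13 libraries hold both cell types, share their scaling, and are the ones other than the 3 with few genes, so the values are a description without a test.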

How the data were processed

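TILs (CD4+ or CD8+) of B16F10 tumors grown s.c. were isolated by the authors after enzymatic digestion, a density gradient and CD3ε MicroBeads, and stranded, rRNA-depleted total RNA libraries were made from 1 ng of RNA. The submitters' processing notes name STAR and HTSeq and the mm10 build, without versions. The authors deposited whole-number read counts per gene, not normalized, with GENCODE M21 identifiers. The strand setting of the counting is not given in the sources used here.

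Counts were tested in R 4.3.3 with edgeR 4.0.16 (TMM, filterByExpr on group, robust quasi-likelihood test, two-sided, Benjamini-Hochberg adjustment, threshold 0.05), each comparison on its own 8 libraries and the interaction on 16. Standard errors are the log2 fold change over the root of the F statistic. CPM used TMM sizes over 16 libraries, and exon lengths were unions of GENCODE M21 exons. Similar transcripts were found with blastn 2.17.0 (at least 80% identity over 150 bases). Alternatives were DESeq2 1.42.0, limma-voom of limma 3.58.1 with quality weights, other size factors and filters, a threshold of 0.1, 1 model for 16 libraries, a replicate block, and leaving out libraries. All 10 members are named. *Sirt2* and *Hdac11* are named for reference, and of each list at most the 3 called genes with the largest log2 fold change per comparison. For members that passed, the 3 genes most correlated are named. Sequences came from RefSeq. The members and lists were chosen with earlier results of these data known. Depth ranged from 28000949 to 62407851 counts, and floors of 3 counts cover counting error only, since PCR copies were not told apart.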

Additional observations from a re-analysis of the deposited data

Results flagged for a closer look

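In 3 of 40 sets of 4 libraries (10 members in 4 groups) the highest or lowest library stood apart from the rest by Dixon's test. Chance alone gives about 1 in 20. *Hdac3* was at 0 CPM in *Sirt2*-/- CD4+ replicate 4, against 29.2 to 33.6 CPM in the other 3 libraries. *Hdac3* was at 40.1 CPM in *Sirt2*-/- CD8+ replicate 3, against 32.2 to 32.7 CPM in the others. *Hdac7* was at 123.5 CPM in WT CD4+ replicate 1, against 86.1 to 92.5 CPM in the others. The first and the last of these libraries are among the 3 with few genes detected.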

How the results depend on the processing

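Over the alternatives, 0 members passed in the genotype comparisons and in the interaction. In the WT cell type comparison *Hdac5* passed in 18 of 19 alternatives and *Hdac2* in 14 of 19. In a model of all 16 libraries *Hdac5* did not pass (-1.23, adjusted p = 0.060). The number of members called there was 5 with limma-voom, 1 with all 16 libraries in 1 model, 4 without the libraries with few genes (also with the replicate block), and 1 to 2 with single libraries left out. In *Sirt2*-/- it was 4, 1, 3 (3 with the block) and 0 to 3, against 0. Gene counts for CD8+ over CD4+ in WT (1765 of 14892 in the main fit) were 5481 with limma-voom, 811 in 1 model, 4394 without the libraries with few genes, 4981 with the replicate block added, and 1022 to 2767 with single libraries left out. In *Sirt2*-/- (354) they were 616 at an adjusted p below 0.1, 1339 with DESeq2, 4474 with limma-voom, 907 with at least 10 counts in every library, 781 in 1 model, 108 with the replicate block, 4250 without the library with few genes, 4524 with the block added, and 111 to 4250 with single libraries left out; *Sirt2*-/- CD4+ replicate 4 gave the 4250. For genotype in CD4+ TILs (0) they were 7 with DESeq2, 4 with limma-voom, 6 without the libraries with few genes and 104 with the block added. In CD8+ TILs (1) they were 3 at an adjusted p below 0.1, 28 with DESeq2, 4 with limma-voom, 5 with no filter, 4 with the replicate block, 7 without the library with few genes, 13 with the block added, and 0 to 7 with single libraries left out. The interaction had 2 genes with DESeq2. The setting that adds the block to the libraries left out was chosen after seeing the data. The causes were not tested.

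Libraries of the same number were not treated as pairs, since the sources do not say whether they share a tumor. Their residual correlations were -0.078 to 0.094 between genotypes in CD4+, -0.082 to 0.033 in CD8+, 0.098 to 0.133 between cell types in WT and -0.023 to 0.150 in *Sirt2*-/-. Between cell types in WT all were above 0. Libraries of unlike number were not correlated, so whether libraries are paired was not tested. The replicate block alone changed no call of a member.

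Signs turned for members with small or imprecise log2 fold changes, and none of these passed under either setting. For genotype in CD4+ TILs, *Hdac2* was at -0.0332 without the libraries with few genes and -0.0096 with the block added. *Hdac4* was at 0.0886 with limma-voom, 0.00477 with the upper quartile, 0.0074 with the replicate block, 0.00502 without the libraries with few genes, 0.122 with the block added and -0.11 to 0.12 with single libraries left out. *Hdac8* ran from -0.70 to 0.0254 with single libraries left out, and with the block added *Hdac6* was at 0.0284 and *Hdac9* at 0.293. In CD8+ TILs, with single libraries left out, *Hdac2* ran from -0.10 to 0.0354 and *Hdac3* from -0.0588 to 0.0521. For CD8+ over CD4+ in WT, *Hdac3* was at 0.00215 with limma-voom, 0.00805 without the libraries with few genes, 0.0134 with the block added and -0.36 to 0.035 with single libraries left out. *Hdac4* was at 0.0359, 0.0262 and 0.0313 in the first 3 of these settings. *Hdac7* was at 0.016 and 0.0154 without the libraries with few genes and with the block added. With single libraries left out *Hdac7* ran from -0.15 to 0.0915, *Hdac6* from -0.29 to 0.0858 and *Hdac10* from -0.56 to 0.0516. In *Sirt2*-/-, *Hdac4* was at 0.0807 with limma-voom, 0.0219 with at least 10 counts, 0.0681 without CD4+ replicate 4 and -0.10 to 0.07 with single libraries left out. *Hdac6* was at -0.0077 without that library, -0.0101 with the block added and -0.01 to 0.85 with single libraries left out, and *Hdac8* at 0.536 with the replicate block and -0.46 to 0.28 with single libraries left out.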
